A study of Mus musculus with 6 samples.

Results

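The proteasome genes of the mouse liver were taken as the rows of the deposited gene table whose symbol starts with Psma, Psmb, Psmc, Psmd, Psme, Psmf or Psmg, pseudogene symbols ending in -ps left out. They were 50 of 16123 genes, and 46 of them had a mean value of at least 10 over both genotypes, as did 11367 of all genes. The other 4 were *Psma8*, *Psmb11*, *Psmc3ip* and *Psme2b*. Of the 50, *Psmc3ip* is no proteasome gene by its product, a partner of meiotic recombinases, and shares only the start of the symbol. The values compared were 1 normalized read level per genotype and gene, so the log2 ratio of KO over WT had no replicate error in 43 of the 50 genes, while reads per library were recovered for the other 7, all of them weakly expressed.

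The 26S proteasome degrades proteins that carry ubiquitin chains. Its 20S core is a barrel in which rings of alpha subunits gate the entry and rings of beta subunits hold the proteolytic sites, and its 19S cap binds ubiquitin, removes it and unfolds the substrate with a ring of ATPases. Interferon replaces the catalytic beta subunits with those of the immunoproteasome, which favours peptides for class I presentation, and the transcription factor NFE2L1 raises the genes of nearly all subunits together when proteasome activity is short.

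Liver RNA was compared between wild type (WT, strain C57BL/6Rj) and Txndc5 Knockout mice (KO, strain C57BL/6JRj-Txndc5<em2Mdnp>/Ciba), which lack exon 3 of *Txndc5*, the gene of an endoplasmic reticulum protein disulfide isomerase, in every cell and descend from 1 founder. All mice were males of 2 months at the start, received a purified chow diet for 4 weeks and were fasted for 16 h, so both genotypes were measured in the fasted state. Each genotype had 3 libraries of polyA RNA, each made from the pooled RNA of 3 mice. Individual mice cannot be seen within a pool.

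*Txndc5* itself was at 2697 in WT and at 90.8 in KO, which is 29.7-fold lower. The libraries held 44040160 to 46050030 clean reads, of which 91.6 to 93.7% mapped to the genome. The labelled tissue showed in the hepatocyte markers, all 6 of which were measured, with a summed value of 2553768 in WT and 2390027 in KO. Of the markers of other cells, the summed values of Kupffer cells were 2306 and 2482 in WT and KO, those of endothelium 2547 and 2401, those of stellate cells 2064 and 1777, those of cholangiocytes 156 and 149 and those of lymphocytes 123 and 102. The lymphocyte sum had a log2 ratio of -0.28, and the red cell sum, 118783 in WT and 180301 in KO, had the largest ratio, 0.60, with 5 of 5 genes higher by more than 1.2-fold. No marker of any list had a deposited value of 0. A gene without reads in 1 genotype can still have a value there, as *Psmb11* below. The values therefore do not show that each marker was read in both genotypes. In bulk RNA, fewer cells of a type and less RNA per cell cannot be told apart.

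In the recovered reads 1 WT library stood apart by base composition. Among 540 weakly expressed genes whose longest transcript has a GC content of at most 42%, its median level lay 1.27 on the log2 scale above the mean of the 6 libraries, whereas the other WT libraries lay at -0.39 and near 0 and the KO libraries at 0.42, -0.59 and -0.56. The median KO minus WT difference of these genes was -0.51 with the 6 libraries and -0.03 without that WT library. Without it and without the KO library that lay highest in this class, the median was -0.34. The part that base composition had in the ratios of single proteasome genes was not tested, and each ratio of a proteasome or pathway gene past 1.2-fold is therefore given below also relative to genes of like GC content and length.

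**Figure D1:**
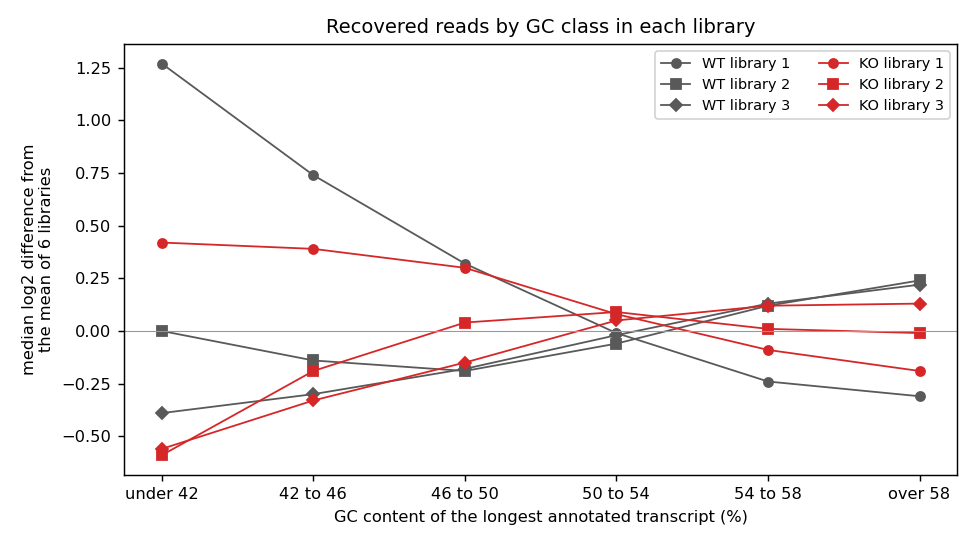
Median log2 difference of each recovered library from the mean of the 6 libraries (vertical axis), by GC content of the longest annotated transcript in percent (horizontal axis), for WT (grey) and KO (red) libraries numbered by falling size factor. WT library 1 runs from 1.27 in the class with the lowest GC content to -0.31 in the class with the highest, and the 6 libraries lie between -0.06 and 0.09 at 50 to 54%.

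The mRNA levels of the proteasome differed little between the genotypes. The 46 genes that reached a mean value of 10 had a median log2 ratio of -0.07, and 40 of them (87.0%) stayed within 1.2-fold, against 67.2% of all genes with that filter. Their log2 ratios ran from -0.77 to 0.34 with an SD over genes of 0.167, against 0.317 over all genes. At a mean value of at least 100, where 43 of the genes remained, 86.0% of them and 75.1% of all genes stayed within 1.2-fold. The SDs over genes were then 0.166 and 0.271. Beyond these filters the genes were not matched for level. Below 0 were 36 of the 46 and above 0 were 10, while 57.7% of all genes lay below 0 and the median of all genes was -0.05.

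By more than 1.2-fold, 5 of the 46 genes were lower in KO, the ATPase *Psmc6*, the alpha subunit *Psma4*, the assembly factors *Psmd9* and *Psmg3* and the immunoproteasome subunit *Psmb8*, where 21.1% of all genes were lower. Only *Psmd2* of the 46 was higher by more than 1.2-fold, where 11.7% of all genes were higher. At a mean value of at least 100 the same 5 and 1 of 43 genes stood against 14.8% and 10.1% of all genes. Past 1.5-fold there was 1 gene lower, *Psmc6*, against 5.79% of all genes, and 0 higher, against 1.57%. At 1.1-fold 14 were lower, against 35.8% of all genes, and 3 higher, against 23.4%. These counts carry no test, since the table holds 1 value per genotype.

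Which genes passed 1.2-fold depended on the reference for a ratio of 0. Relative to the median of all genes, 1 gene was lower (*Psmc6*) and 1 higher (*Psmd2*), against 17.3% and 15.3% of all genes. Relative to genes of the same GC class, 5 were lower (*Psmc6*, *Psmd9*, *Psmg3*, *Psmb8*, *Psmd6*) and 5 higher (*Psmd2*, *Psmc2*, *Psmd10*, *Psmb7*, *Psmd11*), against 14.6% and 15.1% of all genes. Relative to genes of the same length class, 2 were lower (*Psmc6*, *Psmd9*) and 3 higher (*Psme2*, *Psmd10*, *Psmd2*), against 17.1% and 13.5%. Relative to genes of the same class of both, 2 were lower (*Psmc6*, *Psmd9*) and 4 higher (*Psma2*, *Psmd10*, *Psmb7*, *Psmd11*), against 13.6% and 12.6%. The median of the 46 genes was -0.02, -0.06, 0.02 and 0.03 under these references, so its sign changed with the length classes. *Psmc6* was lower under all 4 references, and *Psmd2* was higher past 1.2-fold under 3 of them.

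**Figure D2:**
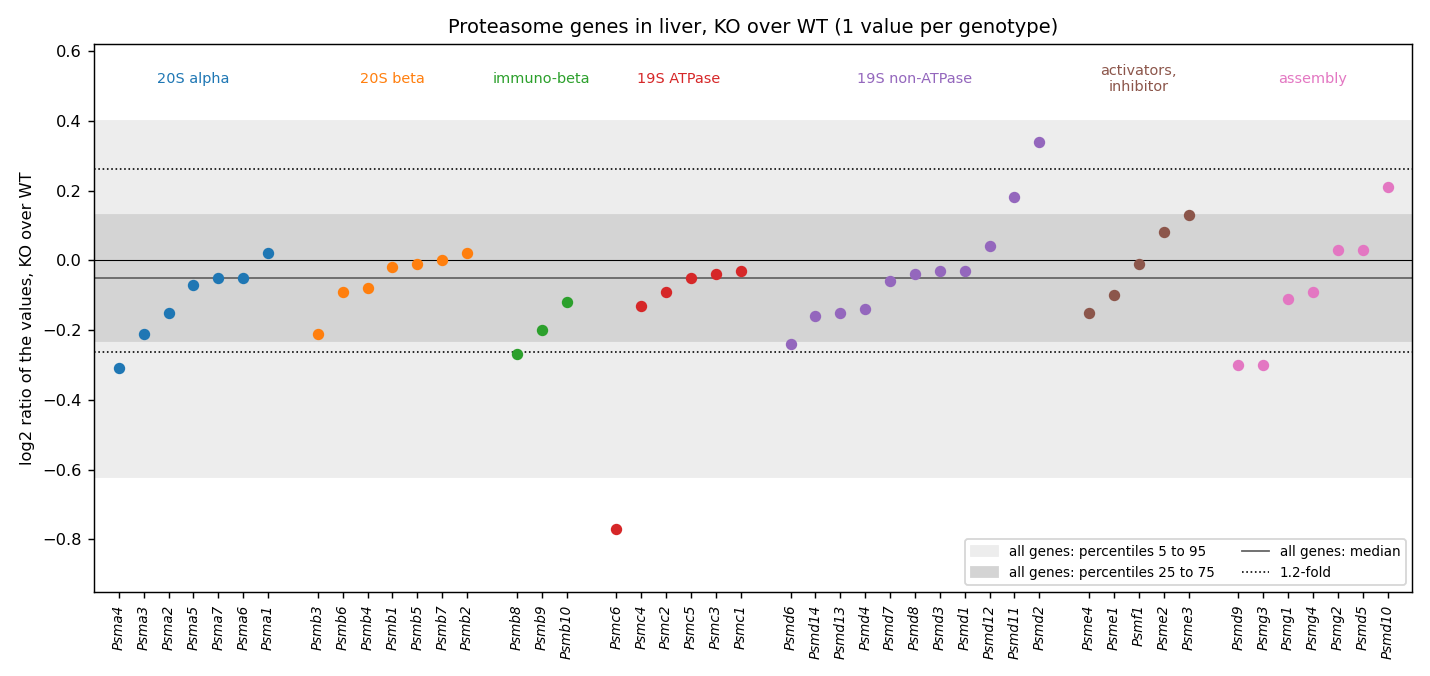
Log2 ratio of the KO over the WT value (vertical axis) of the 46 proteasome genes whose mean value reached 10, ordered within each sub-complex, with 1 point per gene and no error because each genotype has 1 value. Grey bands are the percentiles 5 to 95 (-0.62 to 0.40) and 25 to 75 (-0.23 to 0.13) of all 11367 genes, dotted lines mark 1.2-fold, and *Psmc6* at -0.77 is the only gene outside the wider band.

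The alpha ring of the 20S core, which gates the entry of substrates, had a median log2 ratio of -0.07 over 7 subunits. *Psma4* (chr9:54950790-54958030, plus strand, GRCm38) was at 662 in WT and 536 in KO with a log2 ratio of -0.31, and it was the lowest of the ring. Its ratio was -0.20 relative to its GC class and -0.17 relative to its class of GC content and length, which is within 1.2-fold. *Psma1* was at the other end, with 479 in WT and 484 in KO. *Psma2* (552 and 496) and *Psma3* (794 and 685), with GC contents of 39.4% and 40.8%, had log2 ratios of -0.15 and -0.21 as deposited and 0.25 and 0.19 relative to their GC class, so their direction changed with the reference. The GC content is that of the longest annotated transcript, which need not be the one counted. For *Psma2* the deposited length was 963 bases, against 2911 in its longest coding transcript. *Psma8*, the alpha subunit of the testis, was at 3.12 in WT and 3.72 in KO.

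All 7 subunits of the constitutive beta ring stayed within 1.2-fold, as did 67.2% of all genes, and the median of the ring was -0.02. Its proteolytic subunits were *Psmb5*, which carries the chymotrypsin-like activity, at 1834 in WT and 1823 in KO, *Psmb6*, which carries the caspase-like activity, at 2638 and 2476, and *Psmb7*, which carries the trypsin-like activity, at 1023 and 1020. The log2 ratios of *Psmb5* and *Psmb6* were -0.01 and -0.09, and *Psmb7* was at 0.997-fold. *Psmb3*, a structural subunit, was the lowest at 2132 in WT and 1844 in KO (-0.21), and *Psmb2* the highest at 1159 and 1172 (0.02). *Psmb7*, with a GC content of 40.8%, lay 0.40 above its GC class.

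The 3 inducible catalytic subunits of the immunoproteasome were all below 0, as were 57.7% of all genes. Their median was -0.20, where that of all genes was -0.05. *Psmb8* (chr17:34197721-34201454, plus strand), which takes the place of *Psmb5* in the assembled particle, had 582 in WT and 482 in KO, with a log2 ratio of -0.27. *Psmb9* (chr17:34181987-34187764, minus strand), which takes the place of *Psmb6*, had 203 and 176 (-0.20), and *Psmb10*, which takes the place of *Psmb7*, had 421 and 388 (-0.12). Relative to genes of the same GC content and length, *Psmb8* was at -0.19, *Psmb9* at -0.02 and *Psmb10* at 0.00. Leukocytes express these subunits more than hepatocytes do. The lymphocyte marker sum, from weakly expressed genes, had a log2 ratio of -0.28. Of the 4 of its 8 genes that reached a mean value of 10, 0 were higher and 2 lower by more than 1.2-fold. The Kupffer cell sum was at 0.11, with 2 of 7 genes higher and 0 lower. Of all genes with that filter, 11.7% were higher and 21.1% lower. The part of these cells in the values was not tested.

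*Psmb11*, the catalytic subunit of the thymus proteasome, was read only in WT. Its recovered reads were 6, 3 and 2 in the WT libraries and 0 in each KO library, so that the groups did not overlap. The WT mean of 3.59 normalized reads was 3.87-fold above a floor of 3 reads over the KO libraries. This leaves out the counting error of the 11 WT reads and the spread between pools, so it is no lower bound. The deposited values were 2.33 in WT and 1.26 in KO, 1.85-fold lower. The exact permutation test gave p = 0.1, the smallest p that 3 libraries against 3 allow, and all KO libraries were under all WT libraries in 3.17% of the 6334 genes for which at least 5 reads were recovered. The pattern of reads in all WT and in 0 KO libraries occurred in 13 of those 6334 genes. The gene lies at chr14:54621433-54629556 on the plus strand, close to *Psmb5* at chr14:54614119-54618022 on the minus strand.

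Levels between genes were compared per kilobase of annotated exon. On this scale the WT level of the 20S core subunits ran from 150 for *Psma2* to 2040 for *Psmb5*, a 13.6-fold range, although the particle holds its alpha and beta subunits in equal numbers. The lengths deposited with the genes gave an 8.72-fold range, from 335 for *Psma3* to 2917 for *Psmb3*, and the longest coding transcripts a 17.4-fold range, from 190 for *Psma2* to 3306 for *Psmb6*. By exon length the constitutive catalytic subunits *Psmb5*, *Psmb6* and *Psmb7* stood at 2040, 1409 and 299 in WT, and the immunoproteasome subunits *Psmb8*, *Psmb9* and *Psmb10* at 172, 55.3 and 247. Each immunoproteasome subunit was thus below the constitutive subunit it replaces, which also held with the deposited lengths. In KO the constitutive subunits stood at 2028, 1323 and 298 per kilobase and the immunoproteasome subunits at 143, 48.1 and 228.

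The ATPase ring of the 19S cap, which unfolds the substrate, had a median of -0.07, where that of all genes was -0.05. All 6 subunits were below 0, as were 57.7% of all genes. Relative to the median of all genes, *Psmc1* was at 0.02 and *Psmc3* at 0.01. By that reference *Psmc5* was at -0.00, *Psmc2* at -0.04, *Psmc4* at -0.09 and *Psmc6* at -0.72. As deposited, the ratio was small in 5 of the 6, from -0.13 for *Psmc4* (2525 in WT and 2304 in KO) to -0.03 for *Psmc1* (1808 and 1776). *Psmc6* (NCBI gene 67089, chr14:45329788-45349705, plus strand) had 267 in WT and 157 in KO, 1.70-fold lower and the largest change among the 46 genes. It was also the ATPase with the lowest level per kilobase, at 76.4 in WT and 44.8 in KO, where the median of the 6 ATPases was 868 and 845. The product is 1 of the 6 different ATPases of the ring.

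*Psmc6* also had the lowest GC content of the 46 genes, 37.0% in its longest transcript. Of the 1209 genes in its GC class, 63.1% were lower in KO by more than 1.2-fold and 16.7% were as low as *Psmc6* or lower, against 21.1% and 2.74% of all genes. Its log2 ratio was -0.37 relative to the GC class, -0.71 relative to the length class and -0.52 relative to the class of both. The reads of *Psmc6* per library were not recovered, because its values lie above the level up to which recovery was run. Its ratio was therefore not recalculated without the WT library that stood apart by base composition.

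**Figure D3:**
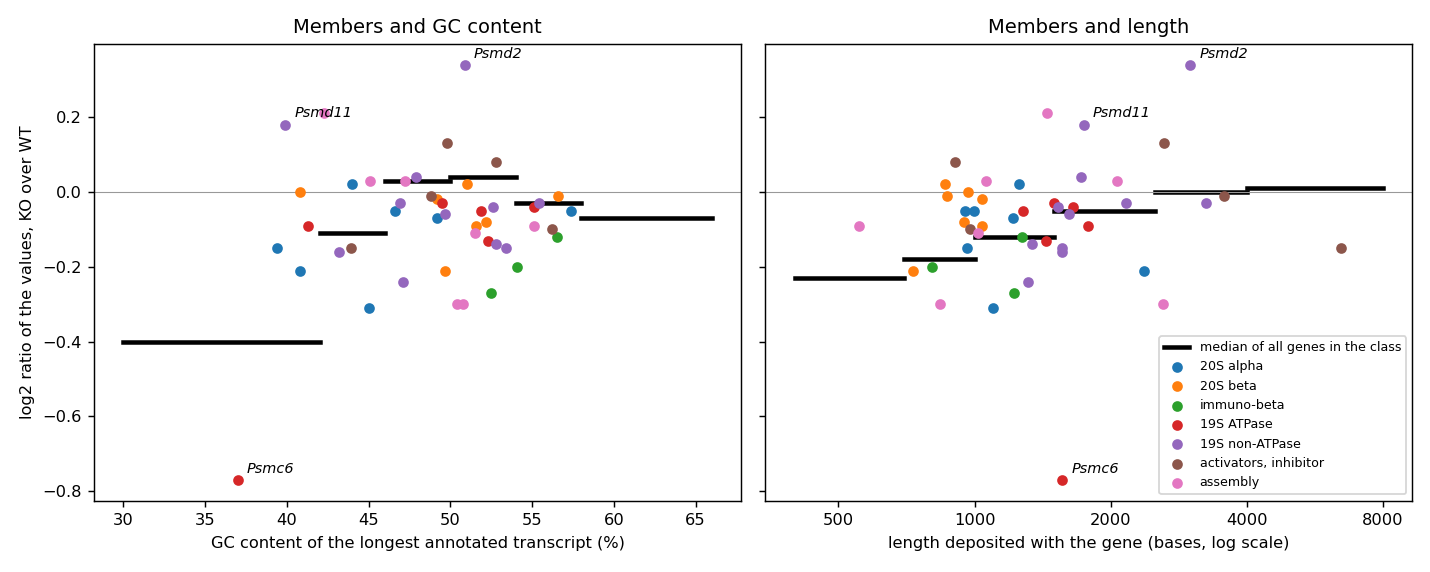
Log2 ratio of the KO over the WT value of the 46 proteasome genes (points, coloured by sub-complex) against the GC content of the longest annotated transcript in percent and against the deposited length in bases on a log axis. Black bars are the medians of all genes in each class, which run from -0.40 at a GC content of at most 42% to 0.04 at 50 to 54%, and *Psmc6* is the point with the lowest GC content and the lowest ratio.

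The sequence before *Psmc6* is shown because this gene had the largest change, with the letters TGACNNNGC of the antioxidant response element in capitals as they read on the opposite strand. RefSeq gives a promoter from 250 bases before to 50 bases after the start for 42 of the 50 genes (GRCm38.p6), and the stretch shown ends where the GENCODE gene begins. These 214 bases, chr14:45329574-45329787 on the plus strand, hold 66.4% G or C, unlike the transcript.

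Psmc6: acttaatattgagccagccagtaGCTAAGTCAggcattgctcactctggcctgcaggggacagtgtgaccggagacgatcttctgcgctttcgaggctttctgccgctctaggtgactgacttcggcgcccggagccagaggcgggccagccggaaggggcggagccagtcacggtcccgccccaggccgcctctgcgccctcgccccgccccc

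The same letters, the site class bound by NFE2L1 and NFE2L2 with small MAF partners, were found on either strand in the promoters of 6 of the 42 genes (14.3%), and in 16.9% of the 9104 genes that had a promoter and reached a mean value of 10. The 42 genes were not filtered by level, and they include *Psmb11*, *Psmc3ip* and *Psme2b*, which lie under that value. The matches of the other 5 genes are shown with up to 15 bases on each side, the 9 matched bases in capitals, at chr14:54618019-54618057 (minus strand) for *Psmb5*, chr11:70525333-70525356 (plus) for *Psmb6*, chr11:107479278-107479304 (plus) for *Psmd12*, chr5:123228144-123228182 (plus) for *Psmd9* and chr11:30771753-30771776 (plus) for *Psme4*. They lie on the opposite strand in *Psmc6*, *Psmd12* and *Psme4*, and the stretches of *Psmb6* and *Psme4* stop with the match because it lies at the RefSeq start of the gene.
Psmb5: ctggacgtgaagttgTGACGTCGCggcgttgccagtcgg
Psmb6: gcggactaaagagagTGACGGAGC
Psmd12: tctGCTGTGTCAcatttgcccccctca
Psmd9: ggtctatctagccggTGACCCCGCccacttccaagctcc
Psme4: cccggcgctgcggctGCAGCGTCA

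The 6 genes with this match had log2 ratios of -0.77 (*Psmc6*), -0.30 (*Psmd9*), -0.15 (*Psme4*), -0.09 (*Psmb6*), -0.01 (*Psmb5*) and 0.04 (*Psmd12*), so they covered most of the range of the proteasome genes. The letters CCAAT were found in the promoters of 15 of the 42 genes (35.7%) and of 42.8% of the 9104 genes. The letters GAAANNGAA of the interferon-stimulated response element were found in 7 of 42 (16.7%) and in 8.64%, and *Psmb8*, *Psmb9* and *Psmb10* were not among the 7. A match is a description of the letters and not of binding.

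The non-ATPase subunits of the 19S cap, among them scaffolds, ubiquitin receptors and a deubiquitinase, had a median of -0.04 over 11 genes. *Psmd2* (chr16:20651652-20663414, plus strand), a large scaffold subunit of the base, had 1951 in WT and 2473 in KO, with a log2 ratio of 0.34 and the highest among the 46 genes. It stayed higher relative to its GC class (0.31) and its length class (0.35), and was at 0.26, just under 1.2-fold, relative to the class of both. *Psmd11*, a lid subunit, came next with 955 and 1085 (0.18), and lay 0.58 above its GC class with a GC content of 39.9%. *Psmd6*, another lid subunit, was the lowest at 525 and 444 (-0.24).

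*Psmd1*, the other large scaffold subunit of the base, was at 1424 in WT and 1390 in KO (-0.03). *Psmd14*, the deubiquitinase of the lid, had 220 and 197 (-0.16) and the lowest level per kilobase of the 11 subunits, 77.9 in WT. *Psmd4*, a ubiquitin receptor, had the highest level per kilobase, 1116 in WT, with a log2 ratio of -0.14.

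The activators that cap the core in place of the 19S particle and the inhibitor all stayed within 1.2-fold, as did 67.2% of all genes. Their median was -0.01 over 5 genes. *Psme1* and *Psme2* encode the subunits of the interferon-inducible PA28 cap and lie close to each other (chr14:55578123-55581529, plus strand, and chr14:55587441-55591113, minus strand), and their log2 ratios were -0.10 (1210 and 1128) and 0.08 (871 and 922). *Psme3*, the nuclear PA28 gamma, had 851 and 934 (0.13), the highest of the 5. *Psme4*, which encodes PA200, had 569 and 514 (-0.15), the lowest of the 5. The inhibitor *Psmf1* had 787 in WT and 780 in KO.

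*Psme2b*, a near copy of *Psme2* whose reads may have been split between the genes in counting, had recovered reads of 7, 6 and 2 in WT and 6, 0 and 0 in KO. The exact permutation test gave p = 0.2. *Psmc3ip* had 2, 0 and 2 reads in WT and 1, 0 and 1 in KO (exact permutation p = 0.5), and *Psma8* had 4, 4 and 0 in WT and 4, 3 and 6 in KO (exact permutation p = 0.6). In each of the 3 genes the groups overlapped, and the smallest p this test allows is 0.1.

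The assembly factors, chaperones that build the particle and are not part of it, had a median of -0.09 over 7 genes. By SD over genes (0.186) they held the widest spread after the ATPases (0.289). *Psmd9* (chr5:123169413-123250131, plus strand), a chaperone of the ATPase ring, had 1439 in WT and 1166 in KO, with a log2 ratio of -0.30, and its ratio was -0.39 relative to genes of its GC content and length. *Psmg3* (chr5:139823592-139826885, minus strand), a chaperone of the alpha ring, had 140 and 114 (-0.30) and was at -0.19 relative to the class of both. *Psmg1*, the partner of *Psmg2* in the alpha ring chaperone, had 255 and 237 (-0.11). *Psmd5*, a chaperone of the ATPase ring, had 225 and 230 (0.03). 

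The last 3 assembly factors were weak enough for reads per library. *Psmd10*, a chaperone of the ATPase ring also known as gankyrin, had 66, 53 and 11 reads in WT and 73, 45 and 49 in KO, which after division by the size factors were 53.9, 60.3 and 13.5 in WT and 55.6, 43.4 and 55.3 in KO. A single WT library was low and the others lay within or above the KO range, so the groups overlapped. The limma difference was 0.51 on the log2 scale (SE 0.582, adjusted p = 0.999 over 3291 genes, of which 0.0304% had an adjusted p under 0.05), and without the low WT library it was -0.15. 

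For *Psmg2* and *Psmg4*, 3 and 2 sets of reads gave the mean value, and the only set near the deposited ratio was taken. Their group differences and p-values are thus tied to that ratio and cannot serve as a separate check of it. *Psmg2* had 105, 92 and 45 reads in WT and 92, 92 and 83 in KO, or 81.8 ± 25 and 84.2 ± 12.5 normalized reads (SD, n = 3), and the groups overlapped (exact permutation p = 0.9). *Psmg4*, a chaperone that works with *Psmg3*, had 86, 98 and 53 reads in WT and 84, 98 and 62 in KO, or 82.2 ± 25.5 and 76.2 ± 16.2 normalized reads (SD, n = 3, exact permutation p = 0.6), again with overlapping groups. Leaving out 1 library at a time, the KO minus WT difference in normalized reads ran from -11.0 to 13.8 for *Psmg2* and from -15.2 to 8.69 for *Psmg4*, so neither had a stable direction. In all 3 of these assembly factors the WT library with the smallest size factor had the lowest normalized reads of the 6 libraries or the second lowest.

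**Figure D4:**
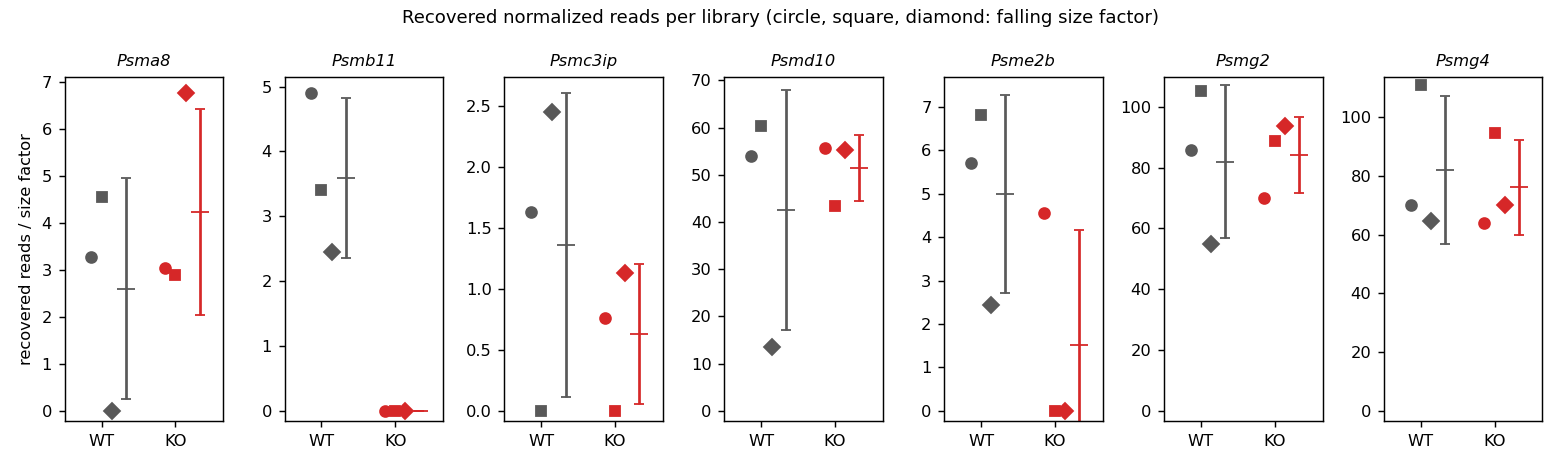
Recovered reads divided by the size factor (vertical axis) of the 7 weakly expressed genes in the 3 WT (grey) and 3 KO (red) libraries, with the mean and SD beside the points and a separate scale for each gene. *Psmb11* is the only gene of the 7 whose groups do not overlap, with 2.45 to 4.90 in WT and 0 in KO. The reads of *Psmg2* and *Psmg4* are the only solution near the deposited ratio among several.

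The genes around the proteasome were read from lists of its bound factors, its control, ubiquitin delivery and class I presentation. Of 11 bound factors and other components whose mean value reached 10, 1 was higher and 2 were lower by more than 1.2-fold, where 11.7% and 21.1% of all genes were, with a median of -0.11. The higher was *Ube3c*, a ubiquitin ligase that works on the proteasome (358 in WT and 445 in KO). The lower were *Pomp*, the maturation chaperone of the core (810 and 652), and *Shfm1*, the small lid subunit SEM1 (361 and 287), and these were at -0.13 and -0.09 relative to their class of GC content and length, while *Ube3c* was at 0.22, so that all 3 were within 1.2-fold. By that reference the deubiquitinase *Usp14* was at 0.59 and the zinc finger protein gene *Zfand5* at 0.38, against 0.04 and -0.17 as deposited, so the genes past 1.2-fold in this list depended on the reference.

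Of 12 genes of the control of proteasome expression, 3 were higher and 1 lower, where 11.7% and 21.1% of all genes were, with a median of 0.13. *Maff*, a small MAF partner of the NFE2 factors, had 50.2 in WT and 107 in KO (log2 ratio 1.09), and *Mafg*, another such partner, had 327 and 440 (0.43). *Nfe2l1*, the factor that raises proteasome genes, had 1626 and 1962 (0.27), while *Nfe2l2*, which answers to oxidants, had 436 and 435. *Ngly1*, which encodes the glycanase that processes NFE2L1, was the lower, at 171 and 135 (-0.34). Relative to genes of like GC content and length, *Maff* and *Mafg* were at 1.16 and 0.50, *Nfe2l1* at 0.15 and *Ngly1* at 0.02, so past 1.2-fold only the small MAF genes remained of these 4.

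Of 15 genes of ubiquitin and its delivery, 2 were higher and 2 lower, where 11.7% and 21.1% of all genes were, with a median of 0.10. The higher were the shuttle factors *Ubqln2* (231 in WT and 299 in KO) and *Rad23b* (2447 and 2973). The lower were *Uba6*, an E1 enzyme (22.6 and 14.5), and *Rps27a*, which encodes ubiquitin fused to a ribosomal protein (1384 and 1014). *Ubb*, a polyubiquitin gene, had a log2 ratio of 0.05. Relative to their class of GC content and length, the 2 lower genes were at -0.09 and -0.24, both within 1.2-fold, and of the 2 higher genes *Ubqln2* remained past 1.2-fold at 0.29 and *Rad23b* did not at 0.20.

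Of the 9 genes of the class I peptide pathway, which takes up the peptides of the immunoproteasome, 0 were past 1.2-fold in either direction. Of all genes, 11.7% were higher and 21.1% lower. The median of the 9 genes was 0.05. The transporter subunit *Tap1* had 658 in WT and 679 in KO, and the chaperone *Tapbp* had the highest ratio, 0.22. Relative to their class of GC content and length, *B2m* was at 0.62 and the peptidase *Erap1* at 0.61, both past 1.2-fold. *B2m* encodes the light chain of class I molecules. By that reference 12.6% of all genes were higher by more than 1.2-fold. The ratios of *B2m* and *Erap1* as deposited were 0.19 and 0.06. As deposited, the 3 immunoproteasome subunits ran from -0.27 to -0.12 and these 9 genes from -0.10 to 0.22. Relative to their class of GC content and length, the subunits ran from -0.19 to 0.00 and the 9 genes from -0.19 (*Pdia3*) to 0.62, so the ranges overlapped. The difference between the groups was not tested.

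**Figure D5:**
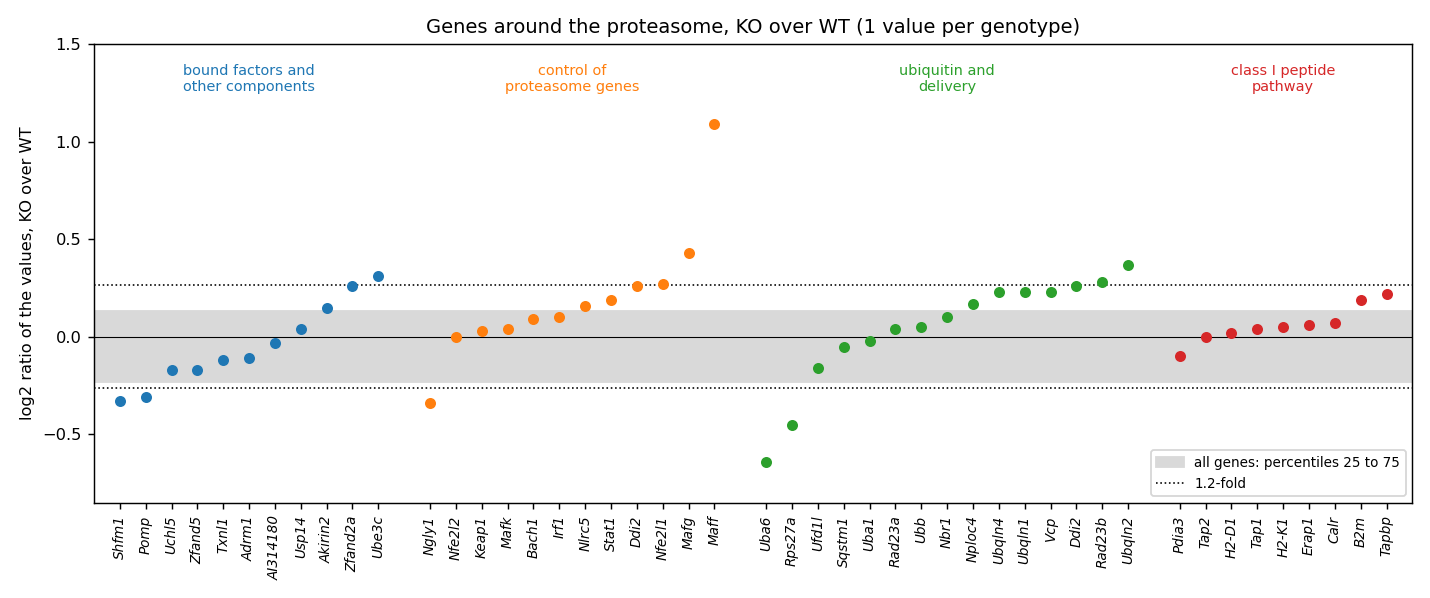
Log2 ratio of the KO over the WT value (vertical axis) of genes around the proteasome whose mean value reached 10, in 4 lists, with 1 point per gene and no error because each genotype has 1 value. The grey band holds the percentiles 25 to 75 of all genes (-0.23 to 0.13), dotted lines mark 1.2-fold, and *Maff* at 1.09 is the highest point.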

How the data were processed

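The authors' sequencing service filtered and mapped the reads. Per the labels, the genome build was mm10, and the processing notes name HISAT2, StringTie, Cufflinks, GATK, Bowtie2 and RSEM without role or version. The deposited gene table held 1 expression signal per genotype, combining the 3 libraries, on the scale of reads divided by size factors. The midpoint of both signals is the mean over the 6 libraries, and their ratio equals the deposited log2 ratio of the authors' own DESeq2 comparison within 1e-10 in all 16123 genes, so it is shrunken toward 0 and understates the change of weak genes. The authors' log2, p-value and adjusted p-value columns were otherwise not used. Clean read counts and percent values of mapping were deposited per library. Splicing summaries were not used.

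The proteasome genes and the other lists were chosen with earlier results of these data known. Log2 ratios were described where the mean value reached 10, beside all genes with that filter, and centred on the median of all genes or, as alternatives chosen after seeing the data, of classes of GC content and deposited length. Reads per library were recovered where the normalized reads of the 6 libraries summed to at most 400 (proteasome genes up to 600) by listing whole-number reads that give the mean value, 99.6% of 8081 genes having a single solution. These are 83804 to 195375 reads per library, a small part of each, and the number of reads behind each value sets its precision. Intervals and floors cover counting error only, and the floor of *Psmb11* only that of the KO reads. The genotype of each recovered library followed from the deposited values, but its pool number is unknown, so libraries are numbered by falling size factor. For *Psmg2* and *Psmg4* several solutions existed, and the only one near the deposited ratio was taken, a rule added after seeing the solutions. limma 3.58.1 compared log2(normalized reads + 1) of 3291 genes with sums of 60 to 400 (two-sided, Benjamini-Hochberg). Other comparisons used two-sided exact permutation tests, whose smallest p with 3 against 3 is 0.1. The p-values rest on the spread between libraries, which holds counting error as well as differences between pools. Counting error weighs most in the genes with few reads. Recovery and limma were tested on simulated data. 

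Positions, exon lengths and GC contents came from GENCODE M21 on GRCm38, the build that mm10 names, with 94.7% of the genes matched, and promoters from RefSeq. GC content was that of the longest annotated transcript, so it and the deposited length can describe different transcripts of a gene. Genes named singly were *Txndc5*, genes with recovered reads, catalytic subunits, activators, assembly factors, the highest and lowest of each sub-complex, genes past 1.2-fold, *Nfe2l1* and *Nfe2l2*. *Psmd1*, *Psmd4*, *Psmd14*, *Psma2*, *Psma3*, *Ubb*, *Usp14*, *Zfand5*, *Tap1*, *Tapbp*, *B2m* and *Erap1* were named after their values were seen. *Paaf1* was not analysed here, and 2 genes of the ubiquitin list are not reported here.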

Additional observations from a re-analysis of the deposited data

How the results depend on the processing

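The median log2 ratio of the proteasome genes was -0.07 and ran from -0.08 to 0.03 over the alternatives run, with the sign turned by centring on classes of length (0.02) and of GC content and length (0.03). The number of genes lower by more than 1.2-fold was 5 and became 14 at 1.1-fold, 1 at 1.5-fold, 1 relative to all genes, 2 relative to genes of the same length class and 2 relative to the class of GC content and length. The number higher was 1 and became 3, 0, 5 relative to the GC class, 3 relative to the length class and 4 relative to both. By gene, 12, 27 and 22 of 46 log2 ratios moved by more than 0.1 when centred by GC class, by length class and by both. The median of the assembly factors was -0.20 at a mean value of at least 100, where only 4 of the 7 genes are left, and the range of levels in the 20S core was 8.72-fold with deposited lengths. Leaving out 1 library at a time, the difference in mapping rate between KO and WT reversed to -0.132 percentage points without WT replicate 5, against 0.483 with all and up to 0.793, and the limma difference of *Psmd10* reversed to -0.15 without the WT library with the smallest size factor, with a range up to 0.89. In normalized reads the difference of *Psmg2* (2.41) turned to -2.34 and -11.0 and that of *Psmg4* (-5.96) to 0.146 and 8.69, and that of *Psma8* ran from 0.332 to 2.61, against 1.63 with all. No paired analysis was possible because the labels of WT and KO share only replicate number 2. The depth of recovered reads limits the weak genes, and the other 43 genes have no replicate check.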
